A study of Homo sapiens with 20 samples.

Results

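The genes described here encode the subunits, activators, inhibitor and assembly chaperones of the proteasome. They were taken as every protein-coding gene of the RefSeq annotation whose symbol runs from PSMA to PSMG and ends in a number, which gave 48 of 20037 protein-coding genes. ATAC-seq, which tags accessible DNA with a transposase, had been run on LOVO and RKO, established human colon adenocarcinoma lines. The question posed by the series is whether loss of METTL3, the catalytic subunit of the enzyme that methylates adenosine in RNA, changes accessibility, with and without a block of DNA repair.

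Each line carried a control hairpin RNA (shControl) or a hairpin RNA against METTL3 (shMETTL3), and each of these was left untreated or given olaparib, which inhibits poly(ADP-ribose) polymerase. No dose, duration, hairpin sequence or clone is given in the labels, and every group carries a hairpin, so cells without one were not among the groups. The 20 labelled samples split evenly between the lines. Untreated shControl has 4 samples per line, 2 of them from a second batch, and untreated shMETTL3 has 2. Olaparib was given to 2 samples of shControl and 2 of shMETTL3. The files analysed were 10 lists of open intervals, 5 per line, and each list is named for a group. Untreated shControl has a merged list, without scores, and a scored list in each line. Untreated shMETTL3 has a merged list, and both olaparib groups have scored lists. The scored lists are named for their groups, but their intervals carry peak names of replicate 1, so their widths and scores may be those of 1 sample. A group therefore has no replicate values, no test between groups could be made, and the level of METTL3 RNA was not measured here.

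A gene was counted as having an interval when an interval lay within 1 kb of either annotated end of the gene. The lists held between 6916 intervals (RKO shMETTL3) and 51462 (LOVO shMETTL3 with olaparib), and read depth is not known from them. The shMETTL3 lists were the shortest of each line and had the fewest genes with an interval, and whether that reflects the cells or the libraries cannot be told apart. Both lines are labelled as colon adenocarcinoma cells. Of 10 epithelial marker genes, 4 to 10 had an interval in the LOVO lists and 1 to 5 in the RKO lists, where CDH1, CLDN4, KRT19, KRT20 and VIL1 had none in any list. The endothelial genes CDH5 and PECAM1 had none in any of the 10 lists. Of 5 leukocyte genes, 0 to 2 had an interval per list, with none for PTPRC and CD14 in any list. Of 4 fibroblast genes, 0 to 2 had an interval per list.

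The 26S proteasome degrades proteins tagged with ubiquitin. Its 20S core is a barrel of alpha rings, encoded by PSMA genes, around beta rings, encoded by PSMB genes, which carry the proteolytic sites. The 19S cap, built from the PSMC ATPases and the PSMD non-ATPase subunits, recognises, deubiquitinates and unfolds the substrate. PSME genes encode alternative caps, PSMF1 an inhibitor, and PSMG genes chaperones of core assembly. Most of the genes are expressed in every cell, and NFE2L1 raises many of them together through antioxidant response elements when the proteasome is inhibited. PSMB8, PSMB9 and PSMB10 replace constitutive beta subunits in the interferon-inducible immunoproteasome, PSMB11 does so in the thymus, and PSMA8 is a testis subunit.

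Start-region sequences are shown for 6 of the genes because they span the range of the gene-end results: PSMC4 and PSMD5 had the highest-ranked intervals, PSMA1 and PSMA4 lost a gene-end interval with shMETTL3 in both lines, and PSMA6 and PSMA8 had no gene-end interval at all. Each runs 5′ to 3′ from 250 bases before to 50 after the RefSeq start on GRCh38.p14. Capitals mark any of the 8 searched letter strings on either strand. The antioxidant response element was searched as TGACNNNGC. The factor NF-Y binds CCAAT, and factors of the ETS family bind CCGGAAG. For SP1 the letters were GGGCGG and for the factor YY1 they were ATGGCG. The nuclear respiratory factor was searched as GCATGCGC, and the cyclic AMP response element as TGACGTCA. The TATA box was searched as TATAAA. The PSMC4 window is chr19:39970915-39971214 on the plus strand, that of PSMD5 chr9:120842873-120843172 on the minus strand and that of PSMA1 chr11:14520337-14520636 on the minus strand. The windows of PSMA4 (chr15:78540155-78540454), PSMA6 (chr14:35292067-35292366) and PSMA8 (chr18:26133619-26133918) are on the plus strand.
PSMC4: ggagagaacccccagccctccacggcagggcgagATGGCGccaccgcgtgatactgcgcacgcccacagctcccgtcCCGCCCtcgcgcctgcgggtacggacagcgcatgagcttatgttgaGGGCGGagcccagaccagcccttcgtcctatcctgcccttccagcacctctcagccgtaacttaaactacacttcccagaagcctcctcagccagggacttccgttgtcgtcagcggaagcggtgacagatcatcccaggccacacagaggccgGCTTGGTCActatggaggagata
PSMD5: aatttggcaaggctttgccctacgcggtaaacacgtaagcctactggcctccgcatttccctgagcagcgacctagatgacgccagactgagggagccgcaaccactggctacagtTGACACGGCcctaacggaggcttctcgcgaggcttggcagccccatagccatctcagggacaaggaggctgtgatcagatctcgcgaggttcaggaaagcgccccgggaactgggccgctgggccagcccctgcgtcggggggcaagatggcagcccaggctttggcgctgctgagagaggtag
PSMA1: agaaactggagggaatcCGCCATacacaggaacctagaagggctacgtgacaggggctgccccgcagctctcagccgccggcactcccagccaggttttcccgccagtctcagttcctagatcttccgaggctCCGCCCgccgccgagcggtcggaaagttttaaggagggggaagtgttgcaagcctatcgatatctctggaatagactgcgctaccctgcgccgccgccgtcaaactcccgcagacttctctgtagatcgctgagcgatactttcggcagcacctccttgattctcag
PSMA4: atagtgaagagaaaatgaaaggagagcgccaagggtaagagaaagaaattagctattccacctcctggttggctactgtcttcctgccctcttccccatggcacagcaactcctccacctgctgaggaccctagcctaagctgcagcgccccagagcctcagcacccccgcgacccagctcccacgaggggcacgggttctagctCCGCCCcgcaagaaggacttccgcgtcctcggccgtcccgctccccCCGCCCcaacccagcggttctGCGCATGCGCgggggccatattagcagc
PSMA6: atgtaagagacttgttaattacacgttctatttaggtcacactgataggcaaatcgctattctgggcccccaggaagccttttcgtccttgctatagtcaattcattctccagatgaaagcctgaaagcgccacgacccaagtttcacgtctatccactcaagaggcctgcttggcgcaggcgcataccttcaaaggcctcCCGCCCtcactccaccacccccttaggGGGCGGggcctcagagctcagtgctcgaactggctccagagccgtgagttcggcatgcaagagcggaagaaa
PSMA8: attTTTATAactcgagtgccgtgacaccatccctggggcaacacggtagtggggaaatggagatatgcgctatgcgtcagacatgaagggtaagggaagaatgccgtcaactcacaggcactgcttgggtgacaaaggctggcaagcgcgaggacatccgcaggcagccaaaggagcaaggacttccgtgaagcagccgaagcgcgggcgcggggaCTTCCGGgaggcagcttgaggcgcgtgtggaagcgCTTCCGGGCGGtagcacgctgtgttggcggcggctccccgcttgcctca

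The PSMC4 and PSMD5 windows each hold 1 antioxidant response element string, and the other 4 windows hold none. The PSMA1 and PSMA6 windows lie at starts over 1 kb from both gene ends. Those starts had an interval in 9 lists for PSMA1 and in all 10 for PSMA6. PSMA4 holds the nuclear respiratory factor string in both orientations, overlapping, beside 2 SP1 strings. In PSMA8 an ETS string and an SP1 string overlap near the start. A match is a description of the letters, not of a bound site.

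Proteasome genes had an interval more often than protein-coding genes at large in every list. In untreated LOVO shControl, 43 of 48 had one in the merged list and 41 in the scored list, against 51.5% and 55.8% of all protein-coding genes. With shMETTL3 the LOVO count was 31 against 35.8%, with olaparib in shControl 40 against 53.2%, and with shMETTL3 and olaparib 43 against 58.5%. The RKO counts were 43 (merged shControl), 38 (scored shControl), 22 (shMETTL3), 41 (olaparib, shControl) and 44 (olaparib, shMETTL3). The shares of all genes in those RKO lists were 54.9%, 47.6%, 25.3%, 52.3% and 55.4%, so the lowest count of proteasome genes fell in the list with the fewest genes of any kind. Ribosomal protein genes also exceeded the share of all genes in every list. In merged LOVO shControl 69 of 86 genes of the cytosolic and 67 of 77 of the mitochondrial ribosome had an interval. In RKO shMETTL3 these counts were 31 of 86 and 28 of 77. Differences between the gene sets were not tested.

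**Figure D1:**
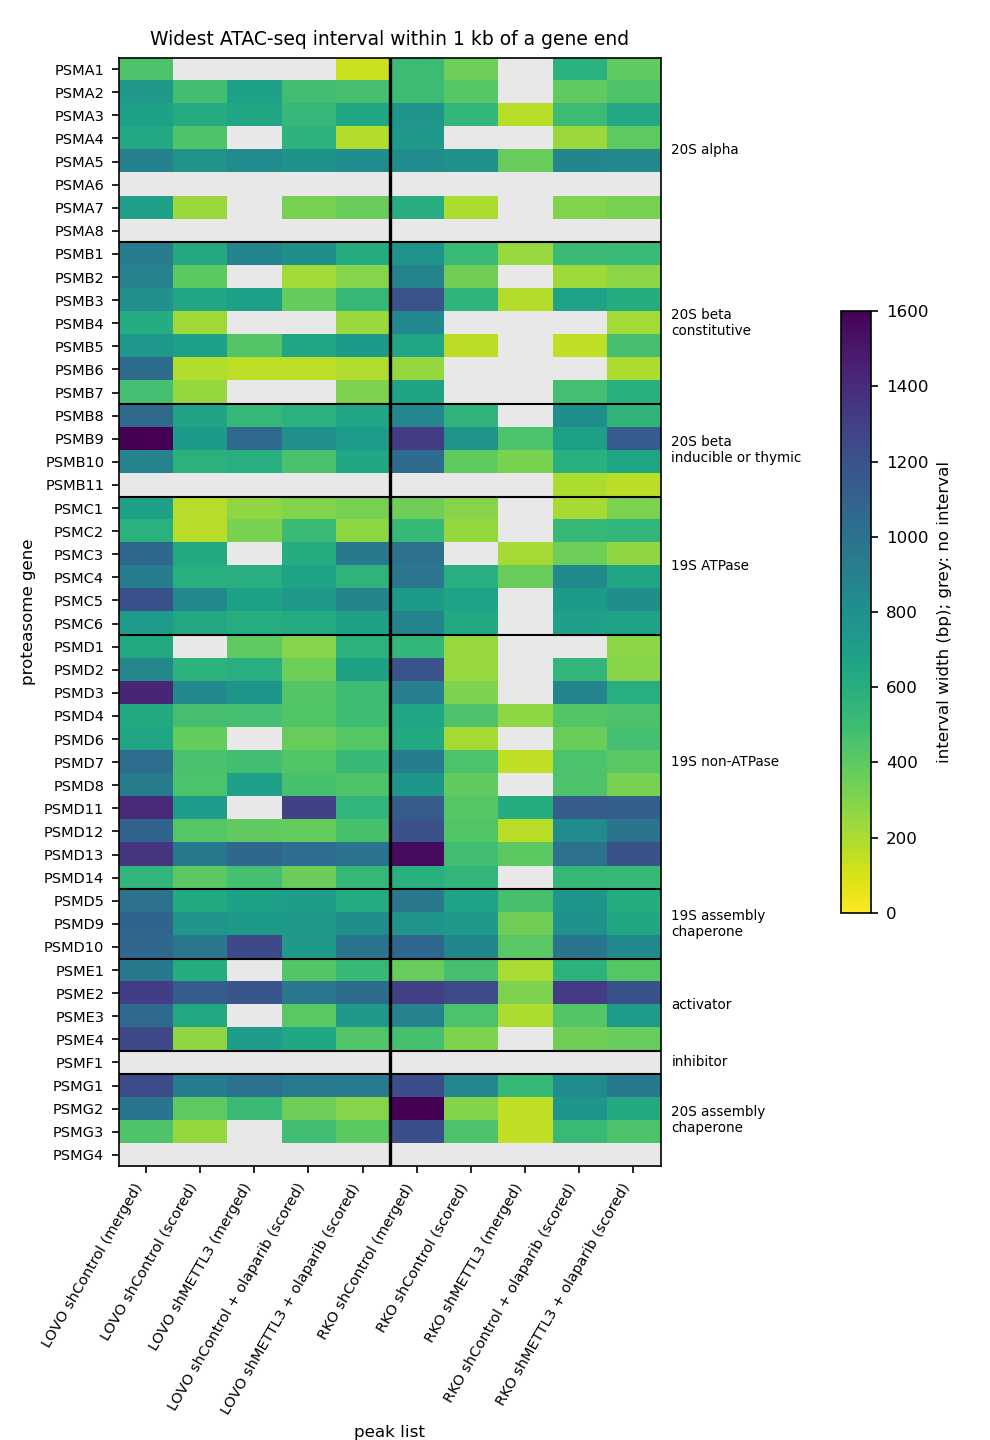
Width in bp of the widest interval within 1 kb of a gene end, for each of the 48 proteasome genes (rows, grouped by role) in each of the 10 peak lists (columns, LOVO left of the thick line and RKO right). Grey means no interval; the RKO shMETTL3 column has 26 grey cells, and its coloured cells run from 152 to 608 bp.

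The set was split between genes with an interval throughout and genes that lacked one in some lists. Of the 48 genes, 17 had an interval in all 10 lists: PSMA3, PSMA5, PSMB1, PSMB3, PSMB9, PSMB10, PSMC4, PSMD4, PSMD5, PSMD7, PSMD9, PSMD10, PSMD12, PSMD13, PSME2, PSMG1 and PSMG2. All 3 chaperones of 19S assembly (PSMD5, PSMD9 and PSMD10) and 2 of the 3 immunoproteasome genes (PSMB9 and PSMB10) were among them. A further 16 had one in 9 lists (PSMA2, PSMB5, PSMB8, PSMC1, PSMC2, PSMC5, PSMC6, PSMD2, PSMD3, PSMD8, PSMD11, PSMD14, PSME1, PSME3, PSME4 and PSMG3). PSMA7, PSMB2, PSMC3 and PSMD6 had one in 8 lists, PSMA4, PSMB6 and PSMD1 in 7, PSMA1 and PSMB7 in 6, and PSMB4 in 5. PSMB11 had one in 2 lists, and PSMA6, PSMA8, PSMF1 and PSMG4 in none. Over all protein-coding genes, 4025 had an interval in all 10 lists and 7097 in none. An interval near a gene end need not lie at the start of that gene. For PSMB10 an interval covered the start only in RKO shControl with olaparib. An interval of PSMB1, which has no start site in the table used, also lay within 1 kb of an end of another gene, TBP.

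Most of the intervals lay over a transcription start. RefSeq start sites were at hand for 42 of the 48 genes. The median distance from the centre of the widest interval within 1 kb of a start to that start, negative meaning upstream, ran from -88 bp (LOVO scored shControl) to -1 bp (RKO scored shControl). In the merged shControl lists that interval covered a start in 39 of 40 genes in LOVO and 38 of 40 in RKO. In RKO shMETTL3, where intervals were short, it covered a start in 9 of 21.

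Among all 480 pairs of gene and list, 386 had an interval inside the 1 kb windows, and in 312 the gene end itself was covered. The pairs just inside the limit were PSMA1 at 923 bp, PSMB10 at 860 bp and PSMB1 at 827 bp from the gene end. The nearest pairs outside were PSMG4 at 1233 and 1263 bp and PSMC6 at 1277 bp.

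For PSMA1, PSMA6 and PSMG4, every RefSeq start lies over 1 kb from both ends of the annotated gene. PSMF1 has such a start beside another on its gene end. PSMA6, an alpha subunit, has starts 13759 and 13824 bp inside the gene (chr14:35278558-35317493). PSMA6 had an interval there in all 10 lists, 915 bp wide in merged LOVO shControl, 300 bp in LOVO shMETTL3, 861 bp in merged RKO shControl and 231 bp in RKO shMETTL3. PSMF1, which encodes an inhibitor of the 20S core, had an interval in all 10 lists at its start 5339 bp inside the gene (chr20:1113263-1172246) and none at its start on the gene end. These 2 genes were therefore accessible at a start throughout, although the gene-end rule gave none.

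PSMG4, a chaperone of core assembly, had an interval at its start 4543 bp inside the gene (chr6:3254404-3268049) in 8 lists and none in shMETTL3 of either line. It was 1025 bp wide in merged LOVO shControl and 1078 bp in merged RKO shControl. With shMETTL3 and olaparib it was 550 bp wide in LOVO and 472 bp in RKO. In scored RKO shControl the interval did not cover the start and was centred 707.5 bp inside it. PSMG4 thus lacked an interval only in the untreated shMETTL3 lists.

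PSMA1, an alpha subunit, starts 15510 bp from the nearer end of the annotated gene (chr11:14504876-14643662). Its start had an interval in 9 lists and lacked one only in RKO shMETTL3. In LOVO the interval at the start was 840 bp wide in merged shControl, 732 bp in scored shControl, 885 bp in shMETTL3, 551 bp in shControl with olaparib and 776 bp in shMETTL3 with olaparib. The gene-end intervals of PSMA1 also lay within 1 kb of an end of PDE3B, a phosphodiesterase gene, so they cannot be assigned to PSMA1. The gene-end loss of PSMA1 in LOVO was not a loss at its start.

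**Figure D2:**
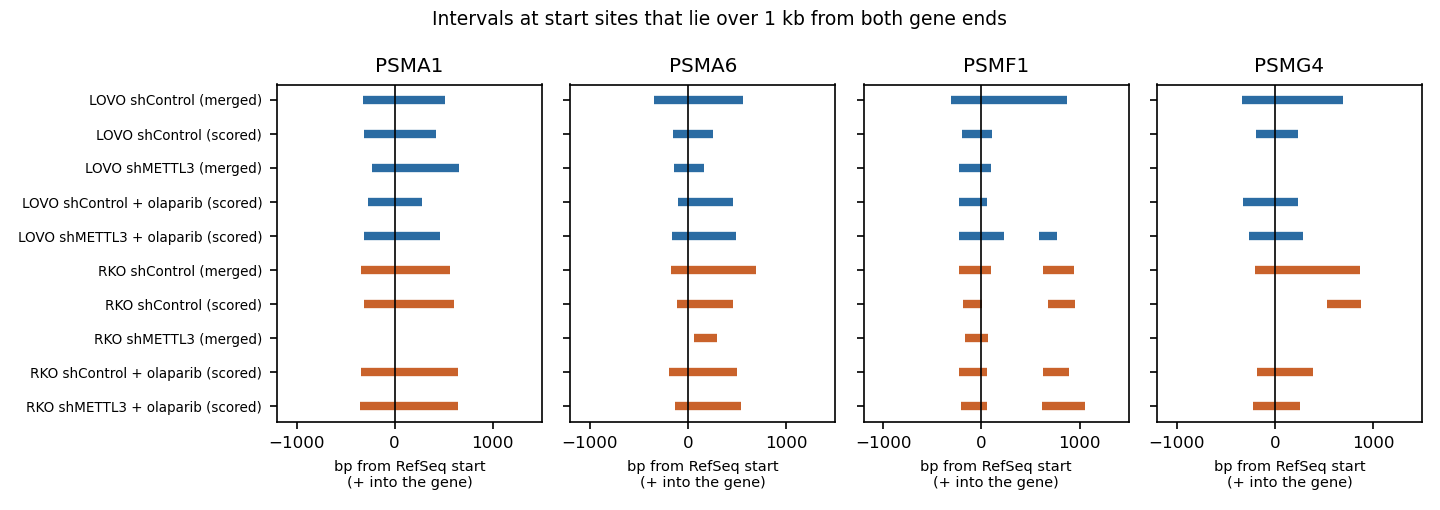
Intervals within 1 kb of the RefSeq start of PSMA1, PSMA6, PSMF1 and PSMG4, drawn as bars from the start (0 bp, positive into the gene) in each of the 10 lists, LOVO in blue and RKO in orange. For PSMF1 the start drawn is the one 5339 bp inside the gene. PSMA6 and PSMF1 have a bar in all 10 lists, PSMG4 has none in either shMETTL3 list, and PSMA1 has none in RKO shMETTL3 only.

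PSMA8, the testis alpha subunit (chr18:26133869-26193355), had no interval at its end or start in any list. The nearest lay 27235 to 43245 bp away. PSMB11, the thymic beta subunit (chr14:23042212-23044060), had an interval in RKO shControl with olaparib, 199 bp wide, and in RKO shMETTL3 with olaparib, 167 bp wide. These lay 190 and 230 bp upstream of the start. In the other 8 lists PSMB11 had none. Among the 42 genes with a known start, PSMA8 and PSMB11, the tissue-restricted core subunits, had an interval at a start in the fewest lists.

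Untreated shMETTL3 was compared with untreated shControl in the merged lists. A gene was counted as lost when it had an interval in shControl and none in shMETTL3, and as gained in the opposite case. In LOVO 12 of 43 proteasome genes (27.9%) were lost, against 31.2% of all protein-coding genes with an interval in shControl, and 0 of 5 were gained, against 0.813%. In RKO 21 of 43 (48.8%) were lost, against 54.1%, and 0 of 5 gained, against 0.321%. Both shares of lost genes were close to those of all genes.

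By role, the LOVO losses comprised 3 of 6 alpha genes (PSMA1, PSMA4 and PSMA7), 3 of 7 constitutive beta genes (PSMB2, PSMB4 and PSMB7) and 1 of 6 ATPase genes (PSMC3). They further comprised 2 of 11 non-ATPase genes (PSMD6 and PSMD11), 2 of 4 activators (PSME1 and PSME3) and 1 of 3 core chaperones (PSMG3). None of the 3 immunoproteasome genes or the 3 chaperones of 19S assembly was lost in LOVO. PSME1 and PSME3 encode subunits of the ring-shaped PA28 activators.

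In RKO the losses comprised 4 of 6 alpha genes (PSMA1, PSMA2, PSMA4 and PSMA7), 5 of 7 constitutive beta genes (PSMB2, PSMB4, PSMB5, PSMB6 and PSMB7) and PSMB8 among the immunoproteasome genes. PSMB5, PSMB6 and PSMB7 encode the proteolytic subunits of the constitutive core. They further comprised 4 of 6 ATPase genes (PSMC1, PSMC2, PSMC5 and PSMC6), 6 of 11 non-ATPase genes (PSMD1, PSMD2, PSMD3, PSMD6, PSMD8 and PSMD14) and PSME4 among the activators. PSMD14 encodes the deubiquitinase of the 19S cap. No chaperone of either kind was lost at its gene ends in RKO.

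PSMA1, PSMA4, PSMA7, PSMB2, PSMB4, PSMB7 and PSMD6 were lost in both lines. These were 7 of the 43 proteasome genes with an interval in both merged shControl lists (16.3%), against 1944 of 9399 protein-coding genes (20.7%). Of the 7, PSMA7, PSMB2 and PSMD6 had an interval in all 4 untreated shControl lists and in both olaparib groups of both lines. They lacked one only in the shMETTL3 lists.

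PSMA7, an alpha subunit (chr20:62136733-62143394), had an interval of 699 bp in merged LOVO shControl, 240 bp in scored shControl, none in shMETTL3, 328 bp in shControl with olaparib and 370 bp in shMETTL3 with olaparib. In RKO the PSMA7 widths in the same order were 606 bp, 198 bp, none, 306 bp and 330 bp. An interval of PSMA7 also lay within 1 kb of an end of SS18L1, a chromatin regulator gene. PSMA7 ranked low wherever its interval was scored.

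PSMB2, a beta subunit without proteolytic activity (chr1:35599541-35641526), had an interval of 891 bp in merged LOVO shControl, 401 bp in scored shControl, none in shMETTL3, 221 bp in shControl with olaparib and 288 bp in shMETTL3 with olaparib. In RKO the PSMB2 widths were 883 bp, 345 bp, none, 229 bp and 276 bp. Both lines gave PSMB2 the same order of widths, with the merged list above the scored lists.

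PSMD6, a structural subunit of the 19S lid (chr3:64010551-64024007), had an interval of 656 bp in merged LOVO shControl, 379 bp in scored shControl, none in shMETTL3, 373 bp in shControl with olaparib and 422 bp in shMETTL3 with olaparib. In RKO the PSMD6 widths were 626 bp, 216 bp, none, 359 bp and 475 bp. The widest scored interval of PSMD6 was in shMETTL3 with olaparib in both lines.

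The other 4 genes lost in both lines also lacked an interval in a scored shControl list of 1 line. PSMA4, an alpha subunit (chr15:78540405-78552417), had an interval of 632 bp in merged LOVO shControl, 441 bp in scored shControl, none in shMETTL3, 565 bp in shControl with olaparib and 184 bp in shMETTL3 with olaparib. In RKO the PSMA4 widths were 739 bp in merged shControl, none in scored shControl or shMETTL3, 243 bp in shControl with olaparib and 396 bp in shMETTL3 with olaparib. The RKO shControl lists thus differed in PSMA4 as the shMETTL3 list differed from merged shControl.

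PSMB4, a beta subunit that helps to complete the core (chr1:151399573-151401937), had an interval of 607 bp in merged LOVO shControl, 226 bp in scored shControl and 242 bp in shMETTL3 with olaparib, and none in the other LOVO lists. In RKO it had 853 bp in merged shControl and 224 bp in shMETTL3 with olaparib, and none in the other RKO lists. PSMB7, the trypsin-like proteolytic subunit (chr9:124353465-124415442), had 480 bp in merged LOVO shControl, 252 bp in scored shControl, 312 bp in shMETTL3 with olaparib and none in the others. In RKO PSMB7 had 665 bp in merged shControl, 478 bp in shControl with olaparib, 585 bp in shMETTL3 with olaparib and none in the others. PSMB4 and PSMB7 were the constitutive beta genes with intervals in the fewest lists.

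PSMA1 had gene-end intervals of 447 bp in merged LOVO shControl and 129 bp in LOVO shMETTL3 with olaparib, and none in the other LOVO lists. In RKO it had 504 bp in merged shControl, 353 bp in scored shControl, none in shMETTL3, 579 bp in shControl with olaparib and 391 bp in shMETTL3 with olaparib. As described above, these lay beside PDE3B.

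Counted at RefSeq starts in place of gene ends, 9 of 40 proteasome genes were lost in LOVO, against 29.5% of all genes, and 19 of 40 in RKO, against 53.1%. None of the 2 others was gained in either line, against 0.740% in LOVO and 0.197% in RKO. PSMA4, PSMB2, PSMB4, PSMD6 and PSMG4 were lost at a start in both lines. PSMA7 and PSMB7 have no start site in the table used. PSMA1 was lost at its start in RKO alone.

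The difference in list length bears on these counts, since the shMETTL3 lists held 16417 (LOVO) and 6916 (RKO) intervals and the merged shControl lists 33474 and 27978. With the shControl list reduced to its widest intervals, as many as in the shMETTL3 list, 9 of 38 proteasome genes were lost in LOVO, against 26.5% of all genes. In RKO 7 of 27 were lost, against 44.0%. Gains were then 2 of 10 in LOVO, against 4.28%, and 2 of 21 in RKO, against 10.1%. Lost in both lines under equal length were PSMB2 and PSMB4.

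The untreated shControl lists of each line, merged against scored, gave the only measure of spread within a group, and they differ in form. In LOVO 2 of 43 proteasome genes with an interval in the merged list, PSMA1 and PSMD1, had none in the scored list, against 3.09% of all genes, and 0 of 5 the reverse, against 12.2%. In RKO 5 of 43 (PSMA4, PSMB4, PSMB6, PSMB7 and PSMC3) had none in the scored list, against 14.4%, and 0 of 5 the reverse, against 1.50%. Of the 5 RKO genes, PSMA4, PSMB4, PSMB6 and PSMB7 were also among the 21 lost with shMETTL3. The scored RKO list was the shorter, with 21210 intervals.

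**Figure D3:**
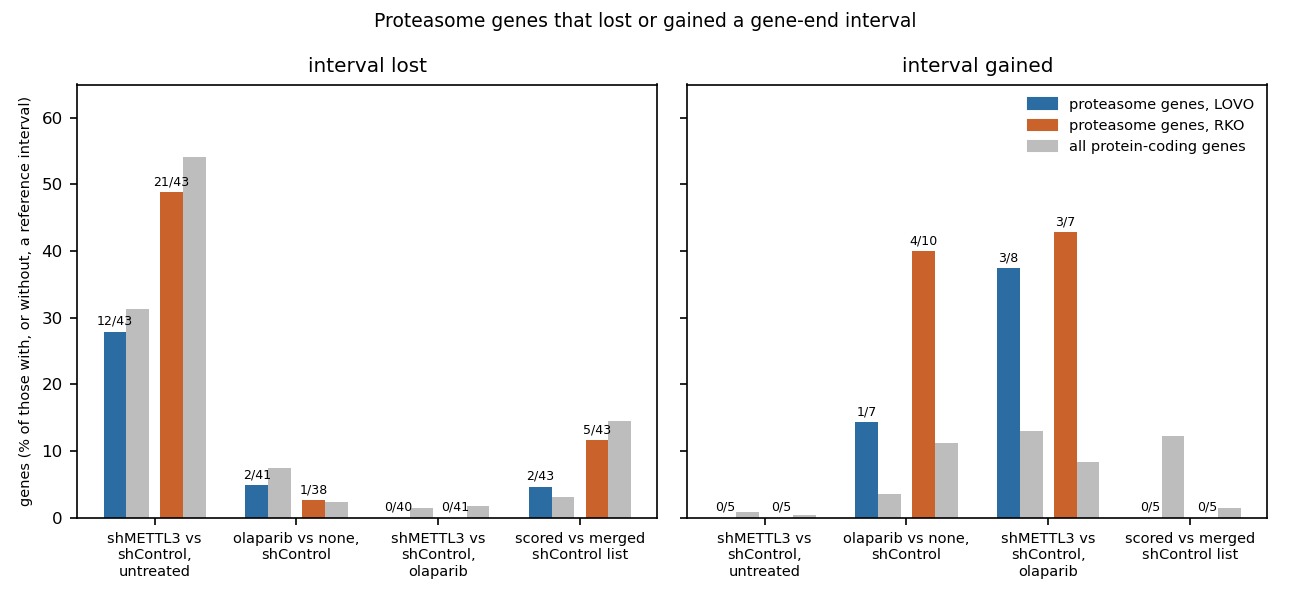
Percentage of proteasome genes that lost an interval, of those with one in the reference list (left), or gained one, of those without (right), in LOVO (blue) and RKO (orange), with the count over each bar and all protein-coding genes in grey. The largest losses, 12 of 43 and 21 of 43, stand beside grey bars of 31.2% and 54.1%, and gain bars rest on 5 to 10 genes each.

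Proteasome genes that kept an interval with shMETTL3 mostly had a narrower one. In LOVO 31 genes had an interval in both merged lists, with a median width of 929 bp in shControl and 651 bp in shMETTL3. The median ratio was 0.675, against 0.685 over 7096 protein-coding genes, and 30 of the 31 were narrower. The exception was PSMD10, which encodes the 19S chaperone gankyrin, with 1063 bp in shControl and 1244 bp in shMETTL3. In RKO all 22 genes with an interval in both lists had a narrower one with shMETTL3, with medians of 1021 and 292 bp. The median ratio was 0.316, against 0.320 over 5048 genes. Proteasome intervals thus narrowed about as much as those of all genes.

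Several of the widest shControl intervals were among them. PSMD13, a lid subunit, had 1360 bp in merged LOVO shControl and 1057 bp in shMETTL3, and 1550 and 404 bp in RKO. PSMB9, an immunoproteasome subunit, had 1599 and 1051 bp in LOVO and 1317 and 451 bp in RKO. PSMG2, a core chaperone, had 975 and 509 bp in LOVO and 1596 and 156 bp in RKO. Each of these intervals was narrower with shMETTL3 in both lines, and the merged RKO shControl width exceeded the LOVO width in PSMD13 and PSMG2 but not in PSMB9. Of these PSMG2 intervals, only that in merged LOVO shControl covered the start at the gene end. PSMB9, PSMD13 and PSMG2 each have a start of another gene within 1 kb on the other strand, so the widths cannot be assigned to them alone.

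Proteasome genes lost with shMETTL3 had, in the median, narrower and lower-ranked intervals in shControl. The score of an interval in the scored lists is the authors' own and of an unstated kind, so it was used only as a percentile within its list. In LOVO the 31 kept genes had a median shControl width of 929 bp (range 547 to 1599 bp) and the 12 lost genes 677.5 bp (443 to 1406 bp). The median percentile in the scored shControl list was 81.3 for 30 kept genes and 48.6 for 11 lost genes. In RKO the widths were 1021 bp (371 to 1596 bp) for 22 kept and 657 bp (252 to 1192 bp) for 21 lost genes. The RKO percentiles were 63.6 for 21 kept genes and 36.1 for 17 lost genes, as 4 lost genes had no interval in the scored list.

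The ranges of kept and lost genes overlapped in both lines. Over all protein-coding genes the widths were 991 bp for kept and 828 bp for lost genes in LOVO, and 921 and 738 bp in RKO. The percentiles over all genes were 78.7 and 46.0 in LOVO and 66.9 and 41.6 in RKO. The same pattern was thus present over all genes.

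**Figure D4:**
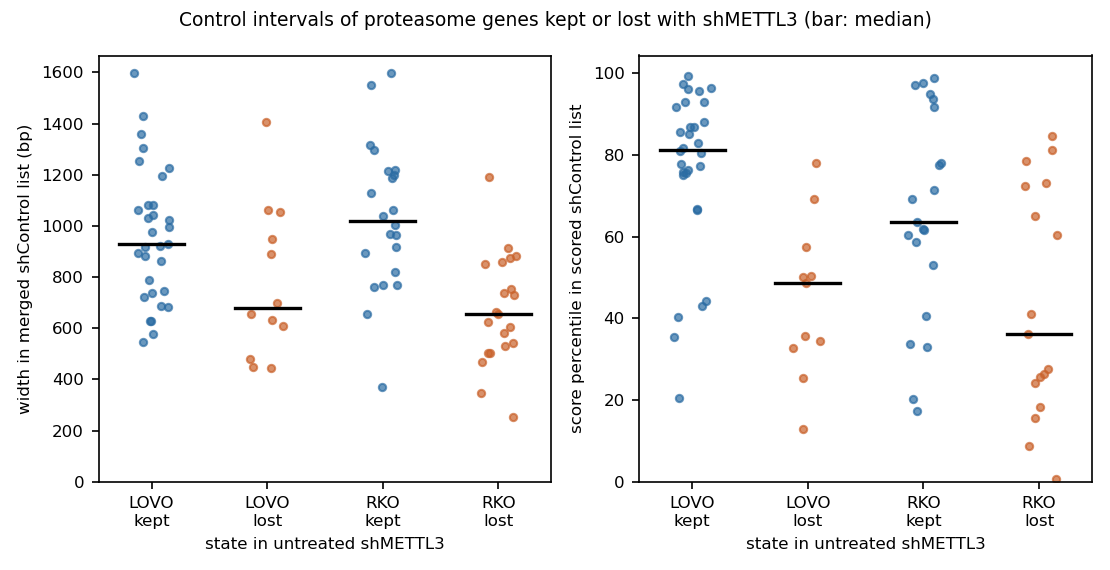
Width in bp in the merged shControl list (left) and score percentile in the scored shControl list (right) of proteasome genes that kept (blue) or lost (orange) an interval with untreated shMETTL3; each point is a gene and the bar is the median. Lost genes have lower medians in both lines and both measures, and the points of the groups overlap.

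All of the lost proteasome genes had an interval in the list of shMETTL3 with olaparib, 12 of 12 in LOVO and 21 of 21 in RKO. Of all lost protein-coding genes, 94.4% had one there in LOVO and 93.4% in RKO. These lists differ in form from the untreated shMETTL3 lists and are longer, with 51462 intervals in LOVO and 35455 in RKO, so treatment, form and length cannot be told apart.

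The effect of olaparib in shControl cells was read from the scored lists with and without the drug. In LOVO 2 of 41 proteasome genes were lost (PSMB4 and PSMB7), against 7.47% of all genes, and 1 of 7 was gained (PSMD1), against 3.49%. In RKO 1 of 38 was lost (PSMD1), against 2.36%, and 4 of 10 were gained (PSMA4, PSMB7, PSMB11 and PSMC3), against 11.1%. With the merged list as the reference, LOVO gave 3 of 43 lost (PSMA1, PSMB4 and PSMB7), against 5.40% of all genes, and 0 of 5 gained, against 9.23%. RKO then gave 3 of 43 lost (PSMB4, PSMB6 and PSMD1), against 7.08%, and 1 of 5 gained (PSMB11), against 2.99%, so that losses outnumbered gains in both lines and PSMB4 was lost in both. With scored lists of equal length, LOVO gave 2 of 39 lost, against 4.10%, and 3 of 9 gained, against 11.6%. RKO then gave 3 of 38 lost, against 9.71%, and 2 of 10 gained, against 6.58%, so that the balance of losses and gains turned in both lines.

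PSMD1, a scaffold subunit of the 19S base (chr2:231056867-231172827), had an interval of 630 bp in merged LOVO shControl, none in scored shControl, 392 bp in shMETTL3, 290 bp in shControl with olaparib and 571 bp in shMETTL3 with olaparib. In RKO it had 541 bp in merged shControl, 245 bp in scored shControl, none in shMETTL3 or shControl with olaparib, and 281 bp in shMETTL3 with olaparib. Between the scored lists, PSMD1 and PSMB7 changed state in opposite directions in LOVO and RKO. PSMC3, a 19S ATPase (chr11:47418775-47426439), had 1061 bp in merged LOVO shControl, 625 bp in scored shControl, none in shMETTL3, 612 bp in shControl with olaparib and 950 bp in shMETTL3 with olaparib. In RKO PSMC3 had 1002 bp in merged shControl, none in scored shControl, 216 bp in shMETTL3, 356 bp in shControl with olaparib and 263 bp in shMETTL3 with olaparib. Between the scored lists, no proteasome gene was gained or lost with olaparib in both lines.

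Where a proteasome gene had an interval with and without olaparib, the median width ratio was 0.970 in LOVO (39 genes) and 1.13 in RKO (37 genes). Over all genes the ratios were 0.995 and 1.21. In LOVO 23 intervals were narrower with olaparib and 16 wider, and in RKO 11 were narrower and 26 wider. More intervals were thus narrower than wider in LOVO and more were wider in RKO, a difference that was not tested.

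Under olaparib, shMETTL3 was compared with shControl in the scored lists, the shControl olaparib list being the same one as in the preceding comparison. In LOVO 0 of 40 proteasome genes were lost, against 1.50% of all genes, and 3 of 8 were gained (PSMA1, PSMB4 and PSMB7), against 12.9%. In RKO 0 of 41 were lost, against 1.79%, and 3 of 7 were gained (PSMB4, PSMB6 and PSMD1), against 8.38%. PSMB4 was gained in both lines, with intervals of 242 bp in LOVO and 224 bp in RKO.

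The direction under olaparib turned when the lists were made equally long by score. LOVO then had 5 of 40 lost, against 15.3% of all genes, and 1 of 8 gained, against 4.11%. RKO had 3 of 41 lost, against 14.9%, and 1 of 7 gained, against 3.66%. PSMB4 was gained in both lines under either rule, and PSMA4 and PSMA7 were lost in both under equal length.

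PSMB6, the caspase-like proteolytic subunit (chr17:4796164-4798495), had an interval of 1032 bp in merged LOVO shControl, 184 bp in scored shControl, 158 bp in shMETTL3, 158 bp in shControl with olaparib and 192 bp in shMETTL3 with olaparib. In RKO it had 252 bp in merged shControl and 196 bp in shMETTL3 with olaparib, and none in the other lists. Outside the merged LOVO list, PSMB6 intervals were among the narrowest of the constitutive core. Of proteasome genes with an interval in both olaparib lists, the median width ratio of shMETTL3 to shControl was 1.12 in LOVO (40 genes) and 0.990 in RKO (41 genes), against 1.06 and 0.997 over all genes.

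In the scored lists, proteasome intervals ranked above the intervals of all genes. The median percentile in LOVO was 76.3 in shControl, 77.4 in shControl with olaparib and 76.5 in shMETTL3 with olaparib, against 65.5, 63.1 and 67.7 over all genes with an interval. In RKO the medians were 61.0, 59.6 and 60.5, against 53.7, 54.8 and 58.8. Of the 36 proteasome genes with an interval in all 6 scored lists, PSMC4, PSMD5 and PSMA5 had the highest median percentiles, and PSMC2, PSMG3 and PSMA7 the lowest.

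PSMC4, a 19S ATPase (chr19:39971165-39981764), ranked at percentiles 99.4, 97.9 and 96.9 in the LOVO lists of shControl, olaparib shControl and olaparib shMETTL3, and at 98.8, 95.0 and 96.7 in RKO. In the order merged shControl, scored shControl, shMETTL3 and the olaparib lists of shControl and shMETTL3, PSMC4 widths were 919, 591, 593, 673 and 559 bp in LOVO and 967, 590, 374, 837 and 656 bp in RKO. This gene, whose start window is printed above, stayed in the top 5% of every scored list. PSMD5, a chaperone of 19S assembly (chr9:120816053-120842922), ranked at 96.5, 97.5 and 96.8 in LOVO and 97.6, 95.5 and 95.4 in RKO. PSMD5 widths in the same order were 997, 621, 682, 703 and 613 bp in LOVO and 964, 677, 468, 756 and 612 bp in RKO. PSMA5, an alpha subunit (chr1:109399042-109426448), ranked at 96.2, 97.9 and 95.7 in LOVO and 97.1, 87.4 and 87.6 in RKO. The PSMA5 widths ran from 769 to 895 bp in LOVO and from 372 to 863 bp in RKO, the lowest being in scored shControl in LOVO and in shMETTL3 in RKO. These 3 genes kept an interval in all 10 lists.

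At the other end, PSMA7 ranked at percentiles 35.7, 15.7 and 31.7 in LOVO and at 0.733, 7.99 and 12.02 in RKO. PSMG3, a core chaperone (chr7:1567332-1570032), ranked at 32.9, 5.45 and 29.1 in LOVO and 53.1, 44.7 and 34.8 in RKO. PSMG3 intervals were 443, 255, 492 and 405 bp wide in LOVO, with none in shMETTL3, and 1218, 449, 152, 513 and 444 bp in RKO. PSMC2, a 19S ATPase (chr7:103347524-103369395), ranked at 66.9, 42.2 and 69.4 in LOVO and 27.6, 30.0 and 30.3 in RKO. PSMC2 intervals were 577, 170, 320, 507 and 269 bp wide in LOVO and 531, 253, 531 and 544 bp in RKO, with none in shMETTL3. Each of the low-ranked genes was lost with shMETTL3 in at least 1 line.

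Several proteasome genes share their start region with a gene on the other strand. A start on the other strand lay within 1 kb for 9 of the 42 genes with a known start (21.4%), against 13.6% of all genes. The pairs were PSMA2 and MRPL32, PSMB9 and TAP1, PSMC5 and FTSJ3, PSMD9 and HPD, PSMD10 and ATG4A, PSMD13 and SIRT3, PSME2 and RNF31, PSME4 and ACYP2, and PSMG2 and CEP76. TAP1 encodes a peptide transporter that works downstream of the immunoproteasome in antigen presentation. Of the 9, 6 had a gene-end interval in all 10 lists, against 9 of the 33 others, and over all genes the shares were 41.2% and 18.4%. The intervals of 14 of the 44 proteasome genes with any interval also lay within 1 kb of another gene's end, so accessibility there cannot be assigned to 1 gene of the pair. PSMD10 and PSMG2 fell outside this count, which used gene ends. Starts of ATG4A and CEP76 lie 236 and 265 bp from theirs, so their intervals cannot be assigned to 1 gene either.

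The start windows of the 42 genes were set beside those of 15843 protein-coding genes. The antioxidant response element string TGACNNNGC was present in 13 of 42 (31.0%), against 14.3% of all windows, and the ETS string CCGGAAG in 13 (31.0%), against 14.2%. CCAAT was present in 19 (45.2%), against 36.4%, GGGCGG in 28 (66.7%), against 58.3%, ATGGCG in 7 (16.7%), against 14.2%, and TATAAA in 5 (11.9%), against 9.80%. GCATGCGC was found in PSMA2 and PSMA4 (4.76%, against 4.27%), and TGACGTCA in none, against 2.56%. The median GC content of the windows was 62.0% in proteasome genes and 62.7% in all genes.

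The antioxidant response element string was more frequent in proteasome genes with a gene-end interval in all 10 lists. It was present in 9 of 15 of them (PSMB3, PSMB9, PSMC4, PSMD5, PSMD9, PSMD12, PSME2, PSMG1 and PSMG2) and in 4 of the 27 others (PSMD1, PSMD3, PSME1 and PSME4). Over all protein-coding genes the shares were 16.7% and 13.7%. The ETS string was present in 4 of 15 and 9 of 27 proteasome genes, against 23.7% and 11.6% of all genes. This split was examined after the values were seen and was not tested. It was made by gene-end intervals, whereas the strings were searched in start windows. PSMA6 and PSMF1, without the antioxidant response element string, were among the 27 others although each had an interval at a start in all 10 lists. The PSMF1 window searched was that of its start on the gene end, which had no interval in any list.

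Genes that act with the proteasome, 36 in all, were counted in the same way. They cover subunits under other symbols, ubiquitin receptors and deubiquitinases, the VCP unfoldase, ubiquitin genes and the factors that control proteasome transcription. With shMETTL3 without drug, 10 of 31 were lost in LOVO, and 17 of 33 were lost in RKO and 0 of 3 gained. NFE2L2, which encodes a factor acting at antioxidant response elements, and MAFG, which encodes one of its partners, were lost in both lines, whereas NFE2L1 had an interval in all 10 lists. With olaparib in shControl, 2 of 34 were lost in LOVO (MAFG and MAFK) and 0 of 2 gained, and 1 of 29 was lost in RKO (MAFG). With shMETTL3 under olaparib, 0 of 32 were lost in LOVO and 1 of 4 gained (MAFK), and 0 of 30 were lost in RKO. The backgrounds are those given above for each comparison.

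Ribosomal protein genes, likewise expressed in all cells, were counted in the same way. With shMETTL3 without drug, 17 of 69 genes of the cytosolic ribosome were lost in LOVO and 45 of 76 in RKO. For the mitochondrial ribosome the counts were 21 of 67 and 45 of 73. The shares over all protein-coding genes were 31.2% in LOVO and 54.1% in RKO. Whether these shares differ from those of the proteasome genes was not tested.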

How the data were processed

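Libraries were prepared with a VAHTS kit, per the labels' protocols. The authors deposited 10 interval lists on hg38. DiffBind 3.0.15, MACS2 2.2.7.1, Bowtie2 2.4.2 and Trim Galore 0.6.6 are named without roles, per the submitters' processing notes. Not given in the sources used here are read shifting, filtering and pooling, and the untreated shControl list that holds the second batch. The score deposited by the authors in 6 lists is of an unstated kind and was used only as a percentile within its list; these intervals carry peak names of replicate 1, and how they relate to the other samples of the group is not stated. Depth is unknown from interval lists.

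Gene ends came from RefSeq (GRCh38.p14, chromosomes 1 to 22, X and Y), without strand or exons, and starts and windows from its promoter table, which held 42 of the 48 genes. A gene had an interval when at least 1 bp of one lay within 1000 bp of either end; the widest interval and the highest score were used. Lists of the same form were compared, except for the untreated shControl pair. No test was run, since each group has 1 list of a form. The members and gene lists were chosen with earlier results of these data known.

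Widths in all lists are given for genes lost in both lines, genes that changed state in either olaparib comparison, genes with an interval in 1 to 4 lists, and the 3 highest and 3 lowest by median percentile; PSMB9, PSMD10, PSMD13, PSMG2 and the start-site intervals were added after their values were seen. Python 3.11.15, NumPy 2.4.6 and matplotlib 3.10.9 were used. On simulated lists the gene calls differed from those of bedtools 2.31.1 for 0 genes in either line. The alternatives tried were the window, the start sites, the overlap, equal list lengths, the upper 50% of each list, the other shControl list, and summed widths or mean scores. Some marker and partner genes are not reported here.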

Additional observations from a re-analysis of the deposited data

Results flagged for a closer look

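The net number of proteasome genes with an interval went opposite ways with shMETTL3 according to treatment. Without drug it was -12 in LOVO and -21 in RKO (shMETTL3 minus shControl), and under olaparib it was 3 in both. The untreated comparison used merged lists and the olaparib comparison scored lists, shMETTL3 had the shorter list in the first and the longer in the second, and the difference was not tested. With lists of equal number, losses outnumbered gains under olaparib too (5 lost and 1 gained in LOVO, 3 lost and 1 gained in RKO), so the opposition was no longer present.

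With olaparib in shControl the net number was -1 in LOVO and 3 in RKO. PSMB7 and PSMD1 changed state in opposite directions in the lines. The PSMB7 interval absent with olaparib in LOVO was 252 bp wide without it, and the one present with olaparib in RKO was 478 bp wide. The PSMD1 interval present with olaparib in LOVO was 290 bp wide, and the one absent with it in RKO was 245 bp wide without it. Neither difference between the lines was tested. With the merged shControl list as the reference, losses outnumbered gains in both lines (3 lost and 0 gained in LOVO, 3 lost and 1 gained in RKO), PSMB7 was not gained in RKO and PSMD1 was not gained in LOVO. With lists of equal number, LOVO had 2 lost and 3 gained and RKO 3 lost and 2 gained, and PSMB7 was not gained in RKO.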

How the results depend on the processing

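Of 88 alternative counts of lost or gained proteasome genes, 65 stayed within 1.5 times the reported count, as did 46 of 50 counts of genes with an interval, all 10 median widths and all 6 median percentiles. With the upper 50% of each list, RKO had 23 genes with an interval in scored shControl, 12 in shMETTL3, and 26 and 29 in the olaparib lists of shControl and shMETTL3. With lists of equal number, untreated shMETTL3 gave 2 gained in LOVO, and 7 lost and 2 gained in RKO. Olaparib in shControl then gave 3 gained in LOVO, and 3 lost and 2 gained in RKO. shMETTL3 under olaparib then gave 5 lost and 1 gained in LOVO, and 3 lost and 1 gained in RKO, which turned the direction in both lines. These lists hold fewer intervals by construction. With the other shControl list, untreated shMETTL3 gave 1 gained in each line, and olaparib gave 0 gained in LOVO and 3 lost and 1 gained in RKO. At start sites only, where 6 of the genes could not be counted, olaparib gave 1 lost in LOVO, shMETTL3 under olaparib 1 gained in LOVO, and the shControl pair 1 lost in LOVO and 3 in RKO. A window of 500 bp gave 2 gained with olaparib in LOVO and 1 in the RKO shControl pair. With 50% of the interval inside the window, untreated shMETTL3 gave 2 gained in RKO and the shControl pair 1 gained. The cause of the last changes was not tested. No paired analysis was possible because each group has 1 list of a form, named for the group, and the scored lists carry peak names of replicate 1 only, and leaving out a replicate could not be run for the same reason.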
